A study of Mus musculus with 6 samples.

Results

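The genes described here are 35 markers of endothelial cells, the cells that line blood vessels, measured by RNA-seq in the tibialis anterior (TA) muscle of mice. The 35 symbols were chosen by their known use as endothelial markers, though with earlier results of these data known. They were matched through Ensembl identifiers to the table of counts. All 35 were found among its 55401 genes and all 35 were among the 17222 genes that passed the filter on low counts. The list falls into 14 genes of junctions, adhesion and surface identity, 7 receptors for growth factors and lipid mediators, 7 transcription factors and 7 genes of arterial, tip and activated endothelium.

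Every mouse was a C57BL/6 animal and, according to the methods, male and 12 to 16 weeks old when recombination was induced. Tamoxifen (2 mg per day for 5 days) activated a Cre recombinase driven by the human skeletal actin promoter. The recombinase deleted Bmal1, the core clock transcription factor, in skeletal muscle fibres (iMSBmal1-/-). Adeno-associated virus (AAV) was injected into the TA 4 weeks after recombination and the muscle was taken 4 weeks later. One group received AAV-GFP (n = 3) and the other AAV-RBM20 (n = 3), which carries Rbm20, the splicing regulator of titin. Both groups therefore lacked Bmal1 in muscle fibres, and no group with intact Bmal1 or without AAV was part of the comparison. The skeletal actin promoter acts in fibres, so the deletion was not directed at endothelial cells. According to the methods, more RBM20 vector than GFP vector was injected, so dose and transgene cannot be told apart. The labels do not say that each sample came from a separate animal, so the p-values measure only the spread between these samples, which may be technical.

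Endothelial cells are held together by VE-cadherin (Cdh5) and claudin-5 (Cldn5). They read growth signals through the VEGF receptors encoded by Kdr and Flt1 and through the angiopoietin receptor TIE2 (Tek). Their identity is kept by ETS family factors, ERG and FLI1 among them, with the SOXF factors SOX7, SOX17 and SOX18. The receptor encoded by Aplnr and its peptide ligand apelin, encoded by Apln, act in vessel growth, and muscle contains a dense network of capillaries that supplies its fibres with oxygen and fatty acids.

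Total counts ranged from 41400132 to 54226618 per library. Rbm20, the delivered gene, checks the labels. It was measured at 170, 165 and 164 CPM in AAV-GFP replicates 1, 2 and 3 and at 499, 545 and 406 CPM in AAV-RBM20 replicates 1, 2 and 3, where CPM is the count scaled to a common library size with TMM factors. The groups did not overlap, the log2 fold change being 1.54 ± 0.15 (SE) at an adjusted p of 0.121 in edgeR and 0.0107 when the replicate number entered the fit as a block. The libraries numbered 3 stood apart from the others of their groups. Ttn took 4.48% of the counts in AAV-GFP replicate 3 and 9.05% in AAV-RBM20 replicate 3, against 16.9% to 17.8% in the libraries numbered 1 and 2.

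As ETS factors hold the identity of these cells, the bases before the start site are shown for 4 members that the results return to. After Aplnr, which has no RefSeq window here, Apln and Cd34 had the largest positive log2 fold changes between the groups, and Kdr and Notch4 were the members furthest down in the libraries numbered 3. Capitals mark GGAAG, one form of ETS motif, or CTTCC, the same letters read on the other strand. Other forms of ETS motif were neither marked nor counted. The sequences are from RefSeq on GRCm38.p6, run 5′ to 3′ on the strand of the gene, and stop before its first annotated exon.
Apln, GRCm38 chrX:48034854-48035103, minus strand: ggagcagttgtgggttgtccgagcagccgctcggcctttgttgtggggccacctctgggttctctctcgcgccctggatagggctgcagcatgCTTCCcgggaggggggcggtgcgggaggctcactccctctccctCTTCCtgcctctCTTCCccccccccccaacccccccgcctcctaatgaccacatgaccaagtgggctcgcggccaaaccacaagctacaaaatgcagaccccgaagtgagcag
Cd34, GRCm38 chr1:194938571-194938818, plus strand: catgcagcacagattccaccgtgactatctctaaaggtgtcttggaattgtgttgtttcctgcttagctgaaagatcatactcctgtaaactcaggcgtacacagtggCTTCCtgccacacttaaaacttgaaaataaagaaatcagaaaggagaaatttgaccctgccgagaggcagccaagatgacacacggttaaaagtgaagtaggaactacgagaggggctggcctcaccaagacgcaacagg
Kdr, GRCm38 chr5:75978459-75978705, minus strand: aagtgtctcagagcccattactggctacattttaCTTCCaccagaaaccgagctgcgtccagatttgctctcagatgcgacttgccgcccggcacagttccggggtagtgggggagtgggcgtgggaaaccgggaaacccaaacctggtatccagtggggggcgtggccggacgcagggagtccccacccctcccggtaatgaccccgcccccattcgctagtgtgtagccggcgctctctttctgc
Notch4, GRCm38 chr17:34564045-34564267, plus strand: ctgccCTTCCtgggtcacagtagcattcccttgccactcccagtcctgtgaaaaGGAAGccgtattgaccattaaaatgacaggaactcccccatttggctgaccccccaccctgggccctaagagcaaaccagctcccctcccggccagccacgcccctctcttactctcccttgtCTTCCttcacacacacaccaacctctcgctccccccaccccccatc
RefSeq windows were at hand for 19 of the 35 members, and GGAAG stood on either strand in the 250 bases before the start in 14 of the 19, 73.7%. The share over all 27025 genes with a window was 63.7%. Tie1 held 6 copies and Egfl7 held 4, while Cldn5, Erg, Esm1, Tal1 and Tek held 0. The motif CACGTG, to which BMAL1 and CLOCK bind as a pair and which reads the same on both strands, stood in 0 of the 19 windows and in 6.04% of all windows. Both motifs are letters in a window and not sites shown to be bound.

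Endothelial genes were readily measured in whole muscle. Per kb of merged exons, the mean level over the 6 libraries was highest for Cdh5 at 22.2 CPM per kb, ranging from 10.2 to 29.0 over the libraries. It was followed by Ptprb, the phosphatase that restrains TIE2, at 12.1 CPM per kb (6.48 to 15.0), Rgcc at 11.7 (8.56 to 13.7), Pecam1 at 10.2 (6.33 to 12.2) and Egfl7 at 9.45 (5.26 to 11.3). The ranges of these 5 genes over the libraries overlapped. The genes were read in the same libraries, however, so overlap of the ranges alone does not settle their order. Esm1, a marker of tip cells, was the lowest at 0.181 CPM per kb (0.0787 to 0.352), below Tal1 at 0.503 (0.369 to 0.595) and Apln at 0.982 (0.648 to 1.43).

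No endothelial gene passed the threshold between AAV-RBM20 and AAV-GFP. In edgeR's quasi-likelihood test 0 of 35 had an adjusted p under 0.05, where 0% of all genes were called in either direction, and with the replicate block 0 of 35 passed, where 0.0871% of all genes were called higher and 0.0581% lower. In DESeq2 without the block 0 of 35 passed as well, where 0.209% of all genes were called higher and 0.226% lower. In DESeq2 with the block 1 of 35, Aplnr, passed, where 1.07% of all genes were called higher and 1.95% lower. In edgeR without both libraries numbered 3, 1 of 35, Cd34, passed, where 1.95% were called higher and 2.05% lower. At an unadjusted p under 0.05, 2 members, Aplnr and Apln, were higher and 0 were lower in edgeR, against 4.08% and 3.82% of all genes, and DESeq2 counted 2 and 0, against 4.16% and 4.49%. The share of members, 2 of 35, is close to the background. The log2 fold changes of the 35 members ranged from -0.79 for Esm1 to 0.85 for Aplnr with a median of 0.098, against 0.009 for all genes, and 27 of the 35 lay above 0, against 51.3% of all genes. The lean was not shared by every pair of libraries. Between the libraries numbered 1, 21 members were higher in AAV-RBM20, with a median log2 difference of 0.033. Between those numbered 2 only 9 were higher and the median was -0.14, and between those numbered 3 31 were higher and the median was 0.52. When both libraries numbered 3 were left out, 15 of 35 log2 fold changes lay above 0 and the median was -0.016. Without AAV-GFP replicate 3 alone, 8 lay above 0 and the median was -0.157.

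**Figure D1:**
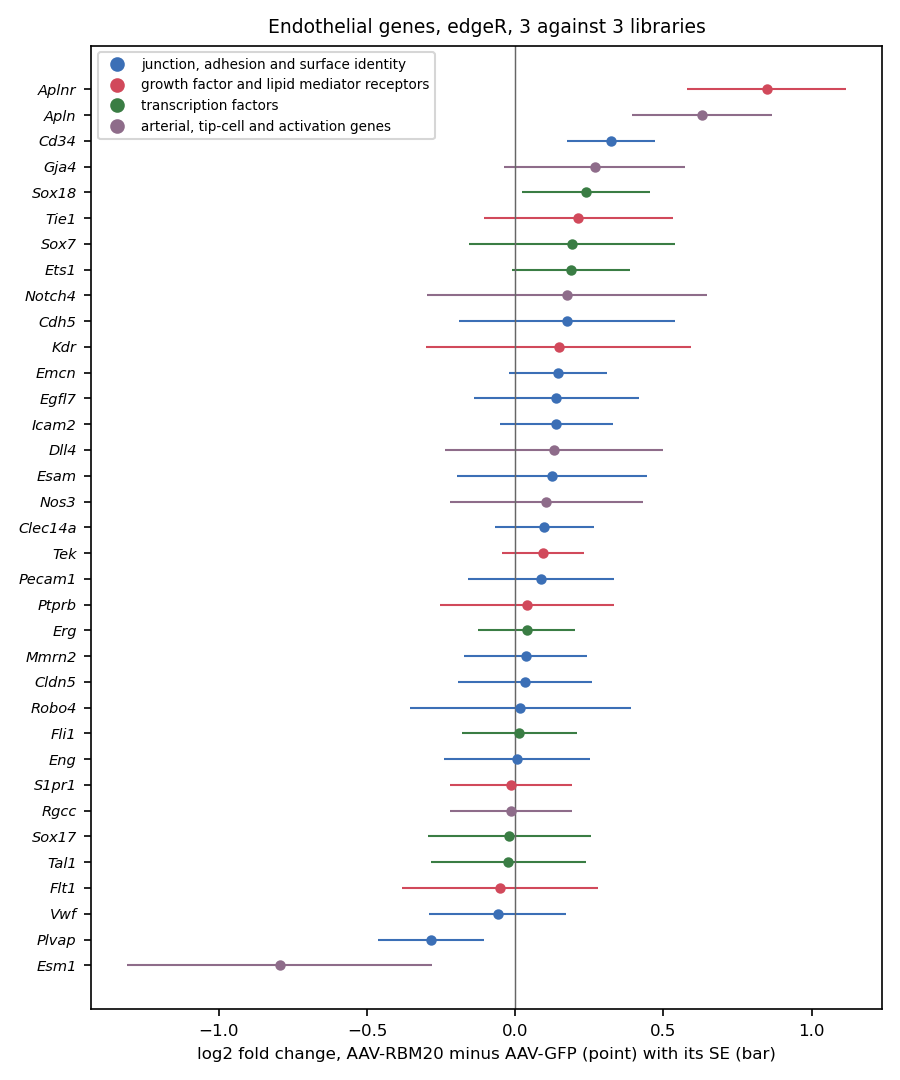
Log2 fold change of each of the 35 endothelial genes, AAV-RBM20 minus AAV-GFP (x axis, points), with its SE (bars), coloured by role. Aplnr at 0.85 and Apln at 0.63 lie furthest to the right, Esm1 at -0.79 furthest to the left, and most bars cross 0.

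The 2 members with the largest positive log2 fold changes encode a receptor and its ligand. Aplnr (GRCm38 chromosome 2, 85136225 to 85139923, plus strand) was measured at 14.1, 13.3 and 8.38 CPM in AAV-GFP replicates 1, 2 and 3 and at 28.8, 19.7 and 15.9 CPM in AAV-RBM20. The groups did not overlap, although AAV-RBM20 replicate 3 lay close to AAV-GFP replicate 1. The means were 11.9 ± 3.12 and 21.5 ± 6.61 CPM (SD, n = 3), a log2 fold change of 0.85 ± 0.27 (SE) whose 95% interval was 0.23 to 1.47, at an unadjusted p of 0.013 and an adjusted p of 0.618 in edgeR. As the groups did not overlap, the difference held in 3 of 3 pairs under any numbering, which adds no support. With the replicate block the adjusted p was 0.0602, short of the threshold, and with the block in DESeq2 it was 8.41e-05, past it, where 1.07% of all genes were called higher and 1.95% lower. Over all alternatives the log2 fold change stayed between 0.58 and 1.03.

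Apln (chromosome X, 48025146 to 48034853, minus strand) was scarce, with 2.04, 2.76 and 2.49 CPM in AAV-GFP and 4.51, 3.88 and 2.88 CPM in AAV-RBM20. Again no AAV-GFP library reached the lowest AAV-RBM20 library, and the closest libraries, AAV-GFP replicate 2 and AAV-RBM20 replicate 3, were near each other. The log2 fold change came to 0.63 ± 0.24 (SE), its 95% interval to 0.084 to 1.17 and its adjusted p to 0.618 in edgeR, and 0.216 with the block. Aplnr and Apln were the only 2 of the 35 members with groups that did not overlap and higher values in AAV-RBM20, against 7.71% of all genes, and 0 members lay lower without overlap, against 9.04% of all genes. Apela, the second ligand of the apelin receptor, had 0 counts in all 6 libraries. Which cells of the muscle held the RNA of Aplnr, Apln or the other members was not tested.

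**Figure D2:**
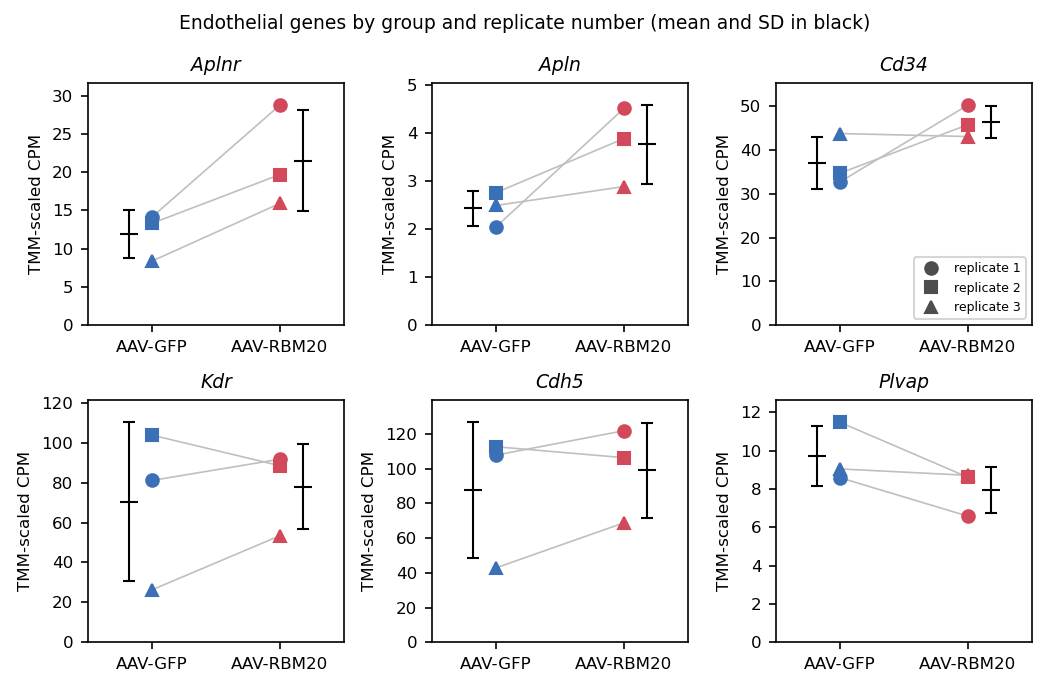
TMM-scaled CPM (y axis, from 0) of 6 endothelial genes in AAV-GFP and AAV-RBM20, with symbols for replicates 1, 2 and 3, grey lines between libraries of one number, and the mean with SD in black (n = 3). Aplnr and Apln lie higher in AAV-RBM20 for each number, whereas Kdr and Cdh5 are low in both libraries numbered 3.

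Among the genes of junctions, adhesion and surface identity, 12 of 14 log2 fold changes lay above 0 and their median was 0.092. Pecam1, the adhesion molecule CD31, was measured at 69.7, 76.2 and 39.4 CPM in AAV-GFP and at 74.8, 65.7 and 56.4 CPM in AAV-RBM20. The groups overlapped, replicate 3 was the lowest of each, and the log2 fold change was 0.087 ± 0.25 (SE), with a 95% interval of -0.48 to 0.65. Cdh5 was measured at 108, 113 and 42.9 CPM in AAV-GFP and at 122, 106 and 68.9 CPM in AAV-RBM20. It had the same shape, with a log2 fold change of 0.17 ± 0.36 (SE) and an interval of -0.67 to 1.01. Cldn5, the tight junction claudin, was measured at 9.03, 7.69 and 7.35 CPM in AAV-GFP and at 10.9, 7.81 and 5.93 CPM in AAV-RBM20. AAV-RBM20 held both its highest and its lowest value, and the log2 fold change was 0.033 ± 0.23 (SE).

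Cd34 (chromosome 1, 194938819 to 194961279, plus strand) encodes a surface sialomucin that fibro-adipogenic progenitors also carry. It was measured at 32.7, 34.7 and 43.7 CPM in AAV-GFP and at 50.2, 45.8 and 43.0 CPM in AAV-RBM20. Only AAV-GFP replicate 3 reached into the range of AAV-RBM20. The log2 fold change came to 0.32 ± 0.15 (SE) at an adjusted p of 0.641 in edgeR and 0.235 with the block, and without both libraries numbered 3 it was 0.52 with an adjusted p of 0.00539, past the threshold, where 1.95% of all genes were called higher and 2.05% lower. Fibroblast markers are given beside it. The summed level of 7 genes of fibroblasts and fibro-adipogenic progenitors was 963 and 862 CPM in AAV-GFP replicates 1 and 2, 1879 CPM in AAV-GFP replicate 3 and 1437 to 1794 CPM in AAV-RBM20, none of the 7 was at 0, and their part in the Cd34 values was not tested. Exons of Cd34 overlap those of an antisense gene over 2.03% of their length.

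Plvap, which forms the diaphragms of fenestrated and caveolar endothelium, was the only member lower in AAV-RBM20 in 3 of 3 pairs, as 23% of all genes were. It was measured at 8.59, 11.5 and 9.04 CPM in AAV-GFP and at 6.58, 8.61 and 8.71 CPM in AAV-RBM20. The lowest AAV-GFP library lay within the range of AAV-RBM20, and the log2 fold change came to -0.28 ± 0.18 (SE) at an adjusted p of 0.665 in edgeR. Vwf, the clotting factor stored in endothelial granules, was measured at 40.3, 52.9 and 27.0 CPM in AAV-GFP and at 34.5, 38.2 and 42.6 CPM in AAV-RBM20. All 3 AAV-RBM20 libraries lay inside the range of AAV-GFP, and the log2 fold change was -0.059 ± 0.23 (SE). The other 8 genes of this role had log2 fold changes of 0.14 or less, each smaller than its SE. They were 0.007 for Eng, the TGF-beta co-receptor endoglin, and 0.018 for Robo4, a guidance receptor. Mmrn2 and Clec14a, whose proteins bind one another, gave 0.035 and 0.098. The adhesion molecules Esam and Icam2 gave 0.12 and 0.14, the sialomucin gene Emcn 0.14, and Egfl7, which encodes a secreted matrix protein and hosts miR-126, also 0.14.

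The receptors gave 5 of 7 log2 fold changes above 0, with a median of 0.095. Kdr, the main signalling receptor for VEGF-A, was measured at 81.1, 104 and 26.3 CPM in AAV-GFP and at 91.7, 88.4 and 53.4 CPM in AAV-RBM20. The AAV-RBM20 values all lay inside the range of AAV-GFP, and the log2 fold change was 0.15 ± 0.45 (SE) with a 95% interval of -0.89 to 1.18. Flt1, the VEGF receptor that also acts as a decoy, was measured at 87.9, 107 and 39.6 CPM in AAV-GFP and at 79.6, 86.0 and 60.8 CPM in AAV-RBM20. These again lay inside the AAV-GFP range, and the log2 fold change was -0.050 ± 0.33 (SE). Tek was the steadiest of the 35 members, with a coefficient of variation of 9.66% over the 6 libraries. It was measured at 27.7, 28.7 and 21.7 CPM in AAV-GFP and at 28.4, 27.9 and 27.2 CPM in AAV-RBM20, a log2 fold change of 0.095 ± 0.14 (SE) with a 95% interval of -0.22 to 0.41. Tie1, the partner receptor of TIE2, was higher in AAV-RBM20 in 3 of 3 pairs at 0.21 ± 0.32 (SE), while the log2 fold changes of Ptprb and S1pr1, the sphingosine 1-phosphate receptor, were 0.038 and -0.014.

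The transcription factors had the smallest median of the roles, a log2 fold change of 0.038, with 5 of 7 above 0. Sox17, a factor of arterial endothelium, was measured at 9.22, 8.17 and 4.16 CPM in AAV-GFP and at 7.39, 7.02 and 6.82 CPM in AAV-RBM20. The AAV-RBM20 libraries sat between the AAV-GFP values, at a log2 fold change of -0.020 ± 0.28 (SE). Sox18, its relative in vessels and lymphatics, was measured at 9.52, 9.56 and 5.83 CPM in AAV-GFP and at 10.9, 10.1 and 8.42 CPM in AAV-RBM20. It was higher in 3 of 3 pairs, as were 4 members in all (Aplnr, Apln, Tie1 and Sox18) and 22.2% of all genes, with a log2 fold change of 0.24 ± 0.22 (SE). The values were 0.19 for Sox7, 0.19 for Ets1, 0.038 for Erg, 0.014 for Fli1 and -0.023 for Tal1, the haemangioblast factor.

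Among the arterial, tip-cell and activation genes, 5 of 7 lay above 0 with a median log2 fold change of 0.13. Dll4, the Notch ligand of tip cells and arteries, was measured at 18.2, 16.7 and 6.44 CPM in AAV-GFP and at 16.9, 17.4 and 10.9 CPM in AAV-RBM20. The groups overlapped and replicate 3 was the lowest of each, at a log2 fold change of 0.13 ± 0.37 (SE). Esm1 was near the limit of measurement, at 0.738, 0.359 and 0.342 CPM in AAV-GFP against 0.165, 0.423 and 0.247 CPM in AAV-RBM20. Its raw counts were 30, 15 and 18 against 9, 17 and 12, and the log2 fold change of -0.79 ± 0.51 (SE) had an interval of -1.98 to 0.39. The values of the remaining genes were 0.17 for Notch4, 0.27 for Gja4, which encodes connexin 37, 0.11 for Nos3, the endothelial nitric oxide synthase, and -0.014 for Rgcc. Antisense genes overlap 25.2% of the exon length of Nos3, so its counts are uncertain where strand was not used.

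A pattern that most of the 35 genes shared ran by library number. In both groups replicate 3 was the lowest of the 3 libraries for 24 of the 35 members, against 26.2% of all genes, and it was the highest in both groups for 1 member, Clec14a, against 28.5% of all genes. On the log2 scale, the difference of replicate 3 from the mean of replicates 1 and 2 had a median over the members of -0.71 in AAV-GFP and -0.25 in AAV-RBM20, where all genes gave 0.040 and 0.008. The largest differences were those of Notch4, an endothelial Notch receptor, at -1.93 in AAV-GFP and -0.85 in AAV-RBM20, and of Kdr at -1.80 and -0.75. Robo4 at -1.47 and -0.58, Dll4 at -1.43 and -0.66 and Cdh5 at -1.36 and -0.73 followed. In AAV-GFP 3 members lay above 0, Cd34 at 0.38, Clec14a at 0.31 and Apln at 0.069.

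**Figure D3:**
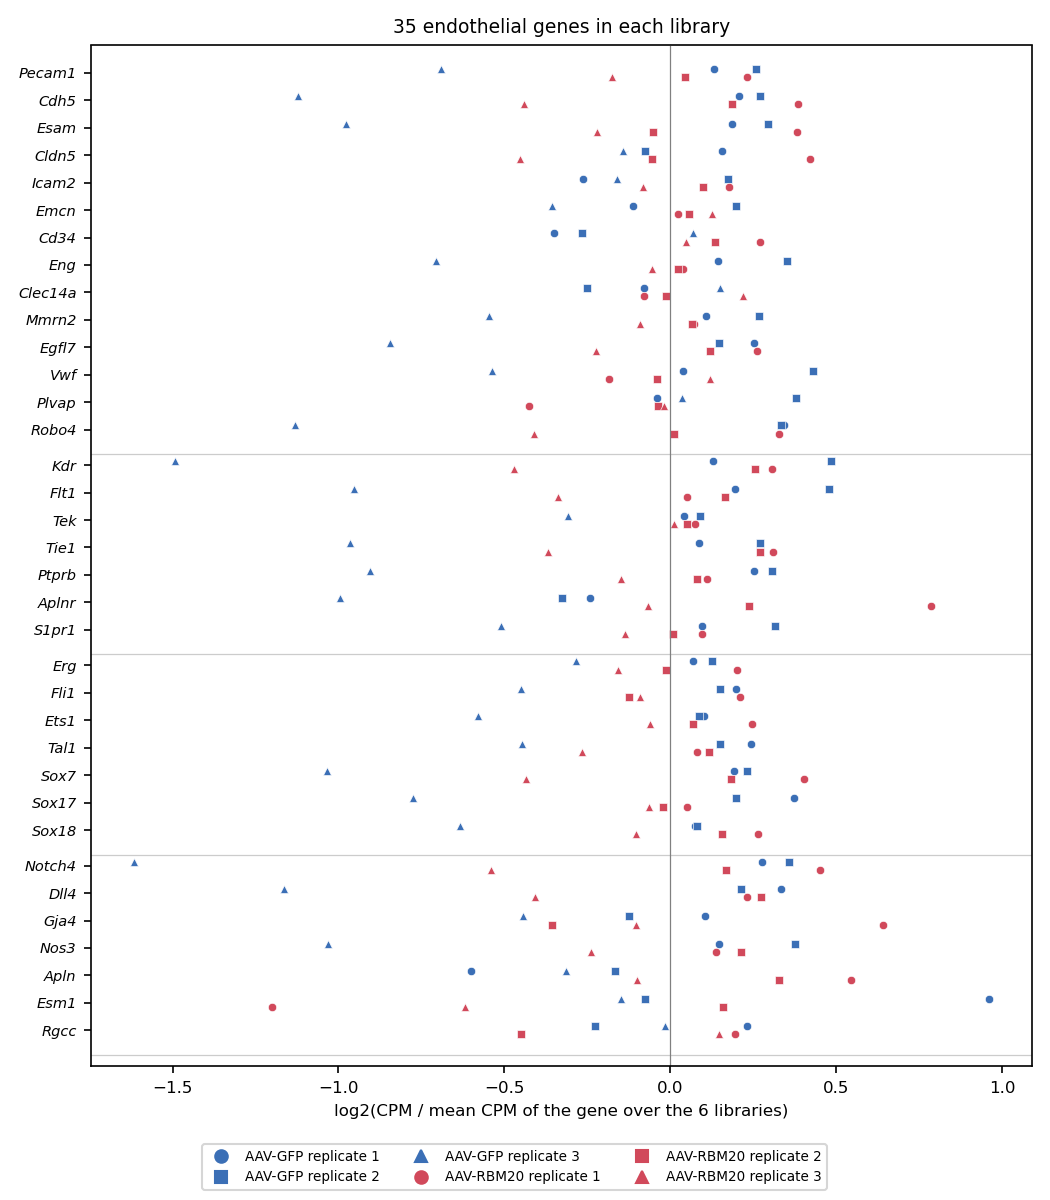
Level of each of the 35 endothelial genes in each library, as the log2 ratio of its CPM to its mean CPM over the 6 libraries (x axis), with AAV-GFP in blue, AAV-RBM20 in red and triangles for the libraries numbered 3. Grey lines separate the roles. Blue triangles lie at the left for most genes, down to Notch4 and Kdr, and red triangles mostly lie between them and the other symbols.

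The summed level of the 35 genes gave the same order, with 1089, 1184 and 581 CPM in AAV-GFP and 1141, 1061 and 860 CPM in AAV-RBM20. AAV-GFP replicate 3 was lowest and AAV-RBM20 replicate 3 next, and the groups overlapped. CPM are shares of a library. In whole muscle, the number of endothelial cells, the RNA per cell and the amount of RNA from other sources therefore cannot be told apart. The 11 genes of pericytes and smooth muscle, which surround the same vessels, summed to 1118, 1111 and 948 CPM in AAV-GFP and 1033, 1047 and 967 CPM in AAV-RBM20. The genes of this list did not run together. Abcc9, Pdgfrb, Notch3, Cspg4 and Myh11 were lowest of their group in the libraries numbered 3, as most endothelial genes were. Abcc9 stood at 307 and 308 CPM there against 412 to 471 CPM in the others. Notch3 stood at 22.7 and 35.8 CPM against 50.3 to 62.6 CPM. Rgs5 and Tagln were highest of their group there, Rgs5 at 509 and 493 CPM against 393 to 438 CPM. The remaining genes of the list did neither in both groups. Abcc9 and Rgs5 were the highest of the list and made up most of its sum. Whether their RNA came from pericytes and smooth muscle alone was not tested. The 11 genes of macrophages and leukocytes were highest in the libraries numbered 3, at 119 CPM against 37.6 and 35.2 CPM in AAV-GFP and at 184 CPM against 87.0 and 77.9 CPM in AAV-RBM20. All 11 were detected and had log2 fold changes above 0, from 0.46 to 1.43, of which 0 passed in edgeR. With the block in edgeR 1, Ptprc, passed at an adjusted p of 0.0478. With the block in DESeq2, Lyz2, Ptprc, C1qb, Adgre1, Csf1r and C1qc passed at adjusted p of 3.68e-10 to 0.0448. That fit called 1.07% of all genes higher. The 11 genes of skeletal muscle fibres summed to 112630, 103238 and 110321 CPM in AAV-GFP and 90139, 97968 and 67253 CPM in AAV-RBM20. Of their log2 fold changes 9 lay below 0 and 2 above, and 0 passed in edgeR with or without the block. With the block in DESeq2, Tnnc2, Tnni2, Tnnt3, Actn3 and Myh4 passed as lower, where 1.95% of all genes were called lower. In DESeq2 without the block only Tnnc2 of this list passed, at an adjusted p of 0.00931. The share of counts from mitochondrially encoded genes was 12.5% and 11.4% in the libraries numbered 3 and 6.41% to 7.66% in the others. The part of these values in the endothelial levels was not tested. Vwf is also carried by platelets, and Pecam1 by platelets and leukocytes. Genes of platelets, erythroid cells and lymphatic endothelium were scarce, at sums of 1.92 to 4.37, 2.69 to 27.3 and 9.25 to 19.0 CPM, with Gp1bb at 0 in all libraries.

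**Figure D4:**
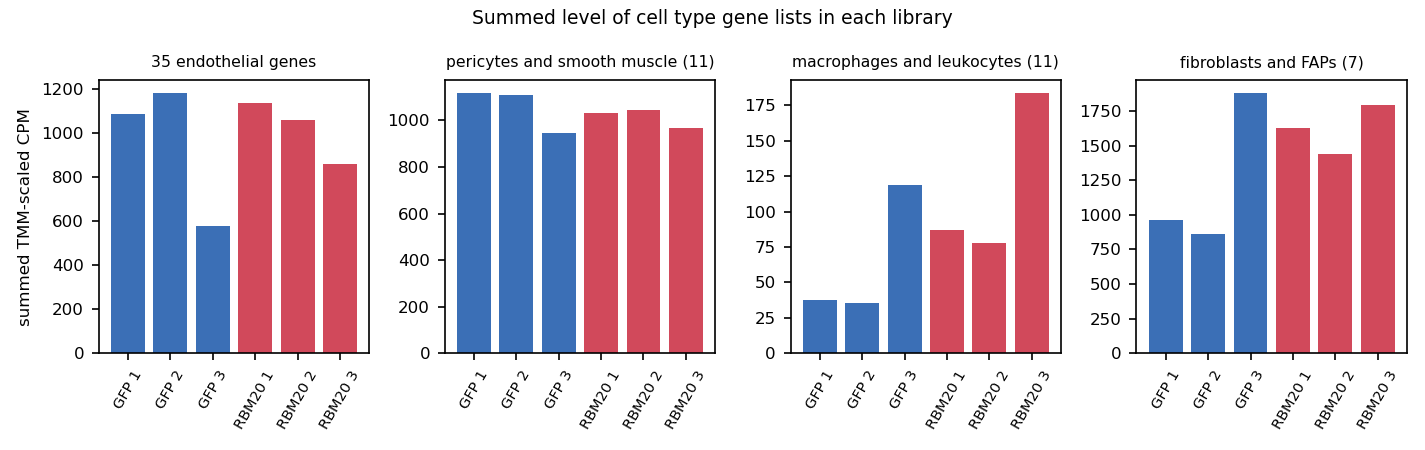
Summed TMM-scaled CPM (y axis, from 0, on a separate scale in each panel) of the 35 endothelial genes and of 3 marker lists of other cell types in each of the 6 libraries, AAV-GFP in blue and AAV-RBM20 in red. The endothelial sum is lowest in AAV-GFP replicate 3 at 581 CPM, where the macrophage sum of 119 CPM is the highest of its group.

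The fall in the libraries numbered 3 was uneven among the members. Over the 35 members, Spearman's rho between this difference and merged exon length was -0.43 in AAV-GFP and -0.085 in AAV-RBM20, and over all 17222 genes it was -0.12 and -0.085. For GC content of the longest transcript it was -0.25 and -0.29 over the members, and -0.10 and -0.30 over the 17196 genes with a value. These describe genes of the same libraries, which are not independent. Among short genes in AAV-GFP, Rgcc, Cldn5 and Icam2 gave -0.019, -0.18 and -0.12. Sox18, Gja4 and Esm1 gave -0.71, -0.43 and -0.58, the last on few counts. Vwf, with the longest exons at 16.1 kb, gave -0.77, and Kdr, with 9.03 kb, gave -1.80. The part of length or GC content in these differences was not tested.

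**Figure D5:**
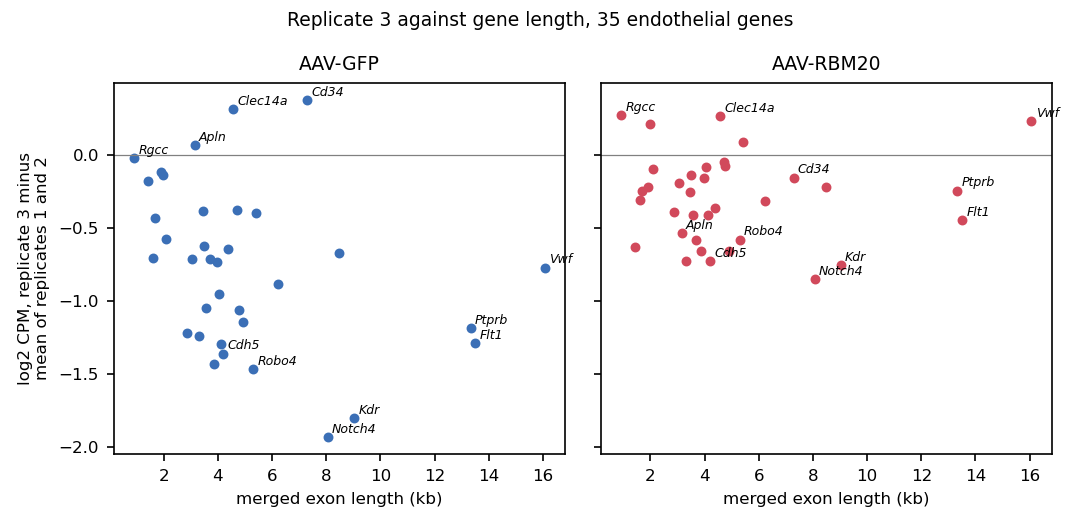
Difference in log2 CPM of replicate 3 from the mean of replicates 1 and 2 (y axis) against merged exon length in kb (x axis) for the 35 endothelial genes, in AAV-GFP (left, blue) and AAV-RBM20 (right, red). Notch4 and Kdr lie lowest in both panels, and Cd34, Clec14a and Apln lie above 0 in AAV-GFP.

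To see the makeup of the endothelial signal apart from its amount, each member was set against the summed CPM of 7 pan-endothelial genes (Pecam1, Cdh5, Tie1, Esam, Egfl7, Robo4 and Clec14a) in the same library. That sum was 313, 328 and 148 CPM in AAV-GFP and 342, 301 and 224 CPM in AAV-RBM20. The log2 ratio of Aplnr to it was -4.46, -4.62 and -4.14 in AAV-GFP against -3.57, -3.93 and -3.81 in AAV-RBM20. Aplnr thus stayed higher in AAV-RBM20 without overlap, by 0.64 on the log2 scale, the only member to do so on either side, against 2.37% of all genes higher and 2.47% lower. The ratio of Apln was -7.25, -6.89 and -5.89 in AAV-GFP against -6.24, -6.27 and -6.28 in AAV-RBM20. It overlapped between the groups, since AAV-GFP replicate 3 was the highest of all, and the mean difference was 0.41. The ratio of Cd34 overlapped as well, at -3.26, -3.24 and -1.76 in AAV-GFP against -2.77, -2.72 and -2.38 in AAV-RBM20.

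The ligands and partners that act on these receptors were read from a separate list of 26 genes of vascular growth factor and Notch signalling. Of the 25 that could be tested, 0 passed in edgeR or with the block in either direction, 16 lay above 0, and the median log2 fold change was 0.063. Vegfa, the ligand of the receptors encoded by Kdr and Flt1, was measured at 249, 299 and 204 CPM in AAV-GFP and at 249, 301 and 251 CPM in AAV-RBM20. Libraries of one number were nearly alike for numbers 1 and 2, and the log2 fold change was 0.090 ± 0.17 (SE). Vegfb, at -0.11 ± 0.12 (SE), and Pgf, at -0.068 ± 0.35 (SE), which bind the receptor encoded by Flt1, lay within their errors. Angpt1, the activating ligand of TIE2, was measured at 14.2, 10.6 and 21.1 CPM in AAV-GFP and at 15.0, 9.25 and 26.4 CPM in AAV-RBM20, the highest in the libraries numbered 3, where the endothelial genes were lowest. Angpt2, its antagonist in endothelium, was at -0.29 ± 0.38 (SE). The log2 fold change was 0.34 ± 0.23 (SE) for Nrp1, the VEGF co-receptor, 0.24 ± 0.36 for Notch1 and -0.044 ± 0.28 for Hey1, a Notch target.

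Fgf2 encodes a growth factor for endothelial cells and myoblasts and was singled out after its values were seen. Of the 25 genes tested in this list, it alone lay lower in AAV-RBM20 without overlap, as 9.04% of all genes did. It was measured at 14.3, 13.8 and 14.2 CPM in AAV-GFP and at 7.52, 8.04 and 9.02 CPM in AAV-RBM20. The libraries within each group lay close together, including those numbered 3, and the log2 fold change came to -0.78 ± 0.13 (SE) at an adjusted p of 0.405 in edgeR and 0.0602 with the block. Fgf2 passed the threshold in 3 of the 18 settings. The adjusted p was 0.000467 in DESeq2, 0.000795 in DESeq2 with the block, and 0.00241 in edgeR without both libraries numbered 3. In that order, those fits called 0.226%, 1.95% and 2.05% of all genes lower. Exons of Fgf2 overlap those of Nudt6 on the opposite strand over 9.44% of their length. Sphk1, which makes the ligand of the receptor encoded by S1pr1, was likewise singled out after its values were seen. It was the one gene of the list higher without overlap, as 7.71% of all genes were, but stayed under 1 CPM in every library.

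Of a second list of 22 regulators of endothelial identity and capillary transport, 21 could be tested, 0 passed in edgeR or with the block, and 13 lay above 0 with a median log2 fold change of 0.037. Klf2, the shear stress factor, was measured at 13.2, 15.3 and 11.1 CPM in AAV-GFP and at 14.8, 16.4 and 17.8 CPM in AAV-RBM20. The groups overlapped through AAV-GFP replicate 2, at a log2 fold change of 0.31 ± 0.15 (SE). Epas1, the hypoxia factor HIF-2 alpha of endothelium, was measured at 274, 275 and 127 CPM in AAV-GFP and at 274, 250 and 179 CPM in AAV-RBM20, low in the libraries numbered 3 as most members were. Gpihbp1, which carries lipoprotein lipase across the capillary wall, and Fabp4, a fatty acid carrier of capillaries and fat cells, had log2 fold changes of -0.030 ± 0.18 and -0.066 ± 0.16 (SE). Fabp4 was measured at 62.3, 56.9 and 72.0 CPM in AAV-GFP and at 57.7, 53.7 and 71.3 CPM in AAV-RBM20, so that unlike Kdr and Notch4 it was highest in the libraries numbered 3.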

How the data were processed

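RNA of TA muscle from 6 samples was compared, 3 per group, with groups and replicate numbers taken from the labels. Per the study's methods and the submitters' processing notes, the authors made stranded, ribosomal RNA-depleted libraries, aligned the reads to mm10 by HISAT2 and assigned them to genes by HTSeq. The values the authors deposited are raw counts per Ensembl gene, in whole numbers. The strand setting, the annotation release and tool versions were not given in the sources used here, so reads of overlapping and antisense genes cannot be told apart. A second deposited table, normalised by DESeq2, was not used.

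Symbols, positions and exon lengths were taken from GENCODE M21 (GRCm38), which lacks 260 of the 55401 identifiers. Groups were compared with edgeR 4.0.16 in R 4.3.3 (filterByExpr, TMM, glmQLFit with robust estimation, glmQLFTest, no covariate), with Benjamini-Hochberg adjustment over 17222 genes and a threshold of 0.05. The SE of a log2 fold change was derived from its F statistic, and 95% intervals use the degrees of freedom of the fit. Log2 levels per library used a prior count of 2. The scripts were tested on simulated data.

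Replicates of one group differed beyond sampling noise, with a chi-square per degree of freedom of 15.1 to 545. Same-numbered libraries of the 2 groups deviated from their group means together, with correlations across genes of 0.42, 0.20 and 0.48. Each was over 0.1, the bar by which the numbers in the titles were taken to pair the samples. Of the differently numbered pairs, AAV-GFP replicate 2 with AAV-RBM20 replicate 1 gave 0.22, AAV-GFP replicate 1 with AAV-RBM20 replicate 2 gave 0.13, and the others -0.42 to -0.22. Differently numbered libraries thus passed the bar of 0.1 as well, so these correlations cannot decide how the libraries numbered 1 and 2 pair. Only the titles give both groups the numbers 1 to 3. The sample descriptions and the columns of counts continue the numbering from AAV-GFP into AAV-RBM20. No label explains the numbers, and all values with the block or by pair depend on the titles. The paper's source data for its RBM20 blots and titin gel list some numbers under both GFP and Rbm20, marked R and L. That list does not name the sequenced samples, so it cannot settle how they pair.

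The members, the other lists and the tests were chosen with earlier results of these data known. All members were named with their log2 fold change. Values in every library were given for Rbm20 and 12 members whatever they showed, and for the members with the smallest unadjusted p until 6 were reached. Of the other lists, 12 genes were named whatever they showed. Alternatives were other scaling factors and filters, DESeq2 1.42.0, limma-voom (limma 3.58.1), the replicate block, leaving out dominant counts and leaving out libraries. Sequences are from RefSeq (GRCm38.p6).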

Additional observations from a re-analysis of the deposited data

How the results depend on the processing

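The count of members past the threshold was 0 in edgeR with other scaling factors, other filters or the replicate block, in DESeq2, in limma-voom and without dominant counts. It was 1 in DESeq2 with the replicate block (Aplnr) and 0 to 1 when libraries were left out, the 1 being Cd34 without both libraries numbered 3. The median over the members ran from -0.157 to 0.259 over all alternatives, and it was below 0 without AAV-GFP replicate 3 and without both libraries numbered 3. Over all genes, 8 passed with no filter on low counts, 25 with the replicate block, 75 in DESeq2, 520 in DESeq2 with the replicate block and 0 to 690 when libraries were left out. At an unadjusted p under 0.05, 1360 genes were counted, 3244 with the replicate block, 2354 in DESeq2 with the block and 343 to 3196 when libraries were left out. In edgeR the replicate block changed the call of no member and, of the other genes described, of Rbm20 and Ptprc. In DESeq2 the block took Aplnr from an adjusted p of 0.241 to 8.41e-05, and Ptprc from 0.278 to 1.57e-07. With a library left out of a group of 3, the spread is shared with the other group, and with both libraries of a number left out 2 remain in each group. Small differences near 0 changed sign often, and the cause was not tested. With a filter of 1 CPM in 3 libraries the log2 fold change was 0.0084 for S1pr1, 0.0020 for Sox17 and 0.013 for Rgcc. In DESeq2 the log2 fold change was -0.0024 for Eng. With DESeq2 size factors the log2 fold change was -0.0021 for Eng. In DESeq2 with the replicate block the log2 fold change was -0.011 for Cldn5, 0.044 for Flt1, 0.015 for S1pr1 and 0.044 for Sox17. In limma-voom the log2 fold change was 0.052 for Flt1, 0.024 for S1pr1, 0.016 for Tal1 and 0.091 for Sox17. With the replicate block in edgeR the log2 fold change was -0.0043 for Cldn5, 0.049 for Flt1, 0.021 for S1pr1 and 0.048 for Sox17. With upper quartile factors the log2 fold change was 0.024 for S1pr1, 0.016 for Tal1, 0.018 for Sox17, 0.031 for Rgcc and 0.010 for Gpihbp1. Over the fits that left out libraries the log2 fold change ran from -0.37 to 0.24 for Flt1, -0.22 to 0.17 for S1pr1, -0.21 to 0.10 for Tal1, -0.30 to 0.20 for Sox17, -0.12 to 0.16 for Rgcc, -0.71 to 0.12 for Angpt2, -0.28 to 0.20 for Hey1, -0.16 to 0.10 for Gpihbp1, -0.22 to 0.23 for Cldn5, -0.35 to 0.19 for Vwf, -0.33 to 0.078 for Pgf, -0.33 to 0.44 for Angpt1 and -0.16 to 0.26 for Pecam1. It ran from -0.16 to 0.39 for Cdh5, -0.18 to 0.37 for Esam, -0.25 to 0.22 for Eng, -0.17 to 0.20 for Mmrn2, -0.14 to 0.33 for Egfl7, -0.33 to 0.23 for Robo4, -0.25 to 0.53 for Kdr, -0.022 to 0.17 for Tek, -0.081 to 0.44 for Tie1, -0.26 to 0.23 for Ptprb, -0.081 to 0.13 for Erg, -0.17 to 0.14 for Fli1 and -0.0052 to 0.30 for Ets1. It ran from -0.12 to 0.41 for Sox7, -0.24 to 0.46 for Notch4, -0.21 to 0.38 for Dll4, -0.22 to 0.38 for Nos3, -0.040 to 0.23 for Vegfa, -0.087 to 0.48 for Notch1, -0.23 to 0.23 for Epas1, -0.19 to 0.029 for Fabp4, -0.079 to 0.45 for Gja4, -0.014 to 0.27 for Icam2 and -0.0046 to 0.29 for Emcn. Depth limits Esm1 and, less, Apln, whose values rest on few counts.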
